A study of Danio rerio with 36 samples.

Results

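The heads of zebrafish larvae raised without microbes were compared with the heads of normally colonized larvae in the experiment that measured total RNA after removal of ribosomal RNA. The comparison was chosen by its count table and its groups, and holds 12 of the 36 libraries of the series. The axenic group, from larvae kept free of microbes, has 6 libraries named A, C, D, F, G and H. The conventional group, from larvae with a normal microbial community, has 6 named A, B, C, F, G and H. All came from a mixed wild type line held at the US EPA, aged 10 days post fertilization, and each library is a pool of heads cut off in front of the swim bladder. No transgene, mutation or drug is given for either group. The study describes axenic larvae as hyperactive and looked for molecular changes in the head that accompany this behaviour. Separate spawns or cultures are not stated for the pools; the p-values therefore describe pool-to-pool spread, which may be technical. In pooled tissue, fewer cells of a type and less RNA per cell cannot be told apart.

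Microbes on the skin, gills and gut lining are sensed by receptors on epithelial cells and leukocytes, which switch on transcription factors of the NF-kB and STAT families. These factors drive cytokines, chemokines and enzymes that make reactive oxygen, together with inhibitors that shut the same pathways down again. Neutrophils and macrophages are drawn to the exposed surfaces, where they take up microbes and digest them in lysosomes. Microbes also bear on the host's food supply and fat handling, and a larva of this age lives by feeding and is still building its skeleton, muscle, skin and retina.

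Total counts per library were 13402268 to 15017642 in the axenic and 11876631 to 14442806 in the conventional group. Small structural RNAs such as 7SL took 47.9% ± 4.70 (SD, n = 6) of axenic and 52.1% ± 2.43 (n = 6) of conventional counts (exact two-sided permutation test, p = 0.0801), and axenic C was lowest at 40.2%. Head tissue was present in every library, with the rod opsin rho at 743 to 979 (median 878) CPM (counts scaled to library size with TMM normalization) in axenic and 429 to 614 (median 486) CPM in conventional pools. Trunk organs were present as well, since the trypsin gene prss1 stood at 1363 to 2282 (median 1820) CPM and 1042 to 1805 (median 1279) CPM. The first principal component took 33.8% of the variance and separated the groups, with conventional libraries within 22.5 to 31.9 and axenic libraries spread from -45.4 (A) and -41.6 (F) to -8.34 (H). Library names carry the mark L6 in all axenic and L7 in all conventional libraries; its meaning is not given in the sources used here, and it cannot be told apart from the group. The 6 re-colonized libraries of the same table came from larvae given microbes back at day 1 and sampled at 10 days post fertilization. These libraries also carry L6. In them the mean lay nearer to the conventional than to the axenic mean for 2855 of 3041 genes called below (93.9%). That is a tally without a test, over genes chosen because axenic and conventional values differed. The same share over all genes was not computed, and the part of the mark in the calls was not tested.

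Of 24860 genes in the table, 19231 passed the filter on low counts and were tested with edgeR's quasi-likelihood test. At a Benjamini-Hochberg adjusted p below 0.05, 3042 genes (15.8%) were called, 1757 of them higher (9.14%) and 1285 lower (6.68%) in axenic heads. These shares are the background for every group of genes described here. Most changes were small: the median absolute log2 fold change of called genes was 0.60, and 455 rose and 222 fell by more than 2-fold. The 6 axenic and 6 conventional CPM values did not overlap for 1276 genes (6.64%), of which 741 were higher and 535 lower in axenic heads. Among the 3042 called genes, 1225 had groups that did not overlap. Of 18535 protein-coding genes tested 1745 (9.41%) were higher and 1247 (6.73%) lower, and of 326 long intergenic RNAs 5 (1.53%) were higher and 23 (7.06%) lower. The difference between these classes was not tested. Below, CPM values are given as lowest to highest of 6 libraries with the median, log2 fold changes are axenic minus conventional ± SE, and gene positions are in GRCz11. Genes with close copies in the genome could share reads, so the values of apobb.2, irg1l, opsins, keratins, granulins and tubulins are uncertain.

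**Figure D1:**
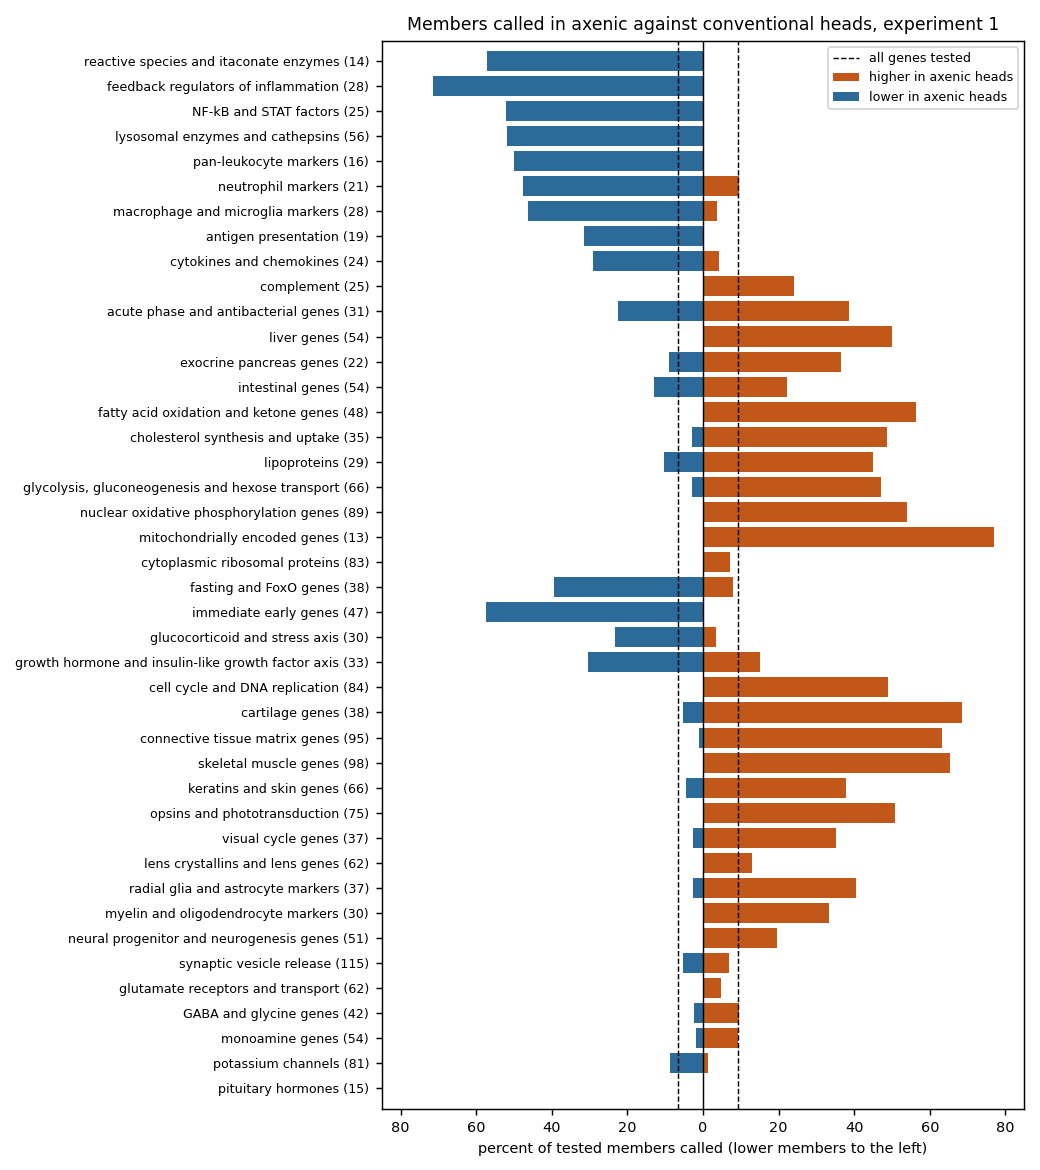
Percent of tested members of each gene list called higher (right, orange) or lower (left, blue) in axenic heads of experiment 1, with the number of tested members in brackets; dashed lines mark the same shares over all genes tested (9.14% higher, 6.68% lower). Inflammation, lysosome and immediate early lists extend to the left, while skeleton, muscle, eye, liver and energy lists extend to the right and neuron lists stay near the dashed lines.

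The largest falls were ranked only among called genes whose groups did not overlap, so their separation followed from the choice. They included plac8.2, clca1 and arf4b. plac8.2, a member of the placenta-specific 8 family of small cysteine-rich proteins (chromosome 10, 11371961 to 11376491), had 3 counts over all axenic libraries, all in axenic H, against 175 in the conventional group, where each library had 12 to 62. That is 63.4-fold lower (95% exact interval 21.3 to 310, counting error only). clca1, whose mammalian relative is secreted with mucus (chromosome 15, 14109652 to 14120431), lay at 0.142 to 0.982 CPM (median 0.350) in axenic and 2.84 to 7.43 CPM (median 5.80) in conventional libraries (log2 -3.65 ± 0.32, edgeR adjusted p = 6.03e-07). The small GTPase gene arf4b ranged over 0.575 to 4.91 CPM (median 2.85) in axenic against 16.02 to 37.8 CPM (median 32.5) in conventional libraries (log2 -3.33 ± 0.31, edgeR adjusted p = 9.07e-07). By that choice no axenic library reached the lowest conventional library for these genes. Axenic H was the highest axenic library for all 3. In the re-colonized libraries the median was 0.358 CPM for plac8.2, 1.58 CPM for clca1 and 13.6 CPM for arf4b. ehf, an ETS transcription factor of epithelia, had 0.208 to 0.840 CPM (median 0.634) in axenic libraries and 1.21 to 6.60 CPM (median 1.60) in conventional ones (log2 -2.11 ± 0.46, edgeR adjusted p = 0.00396). Its conventional maximum came from library B alone. The aminopeptidase gene anpepb of the gut brush border lay at 3.47 to 6.76 CPM (median 4.81) in axenic and 12.03 to 37.9 CPM (median 18.8) in conventional libraries (log2 -2.15 ± 0.24, edgeR adjusted p = 6.30e-06). The adhesion receptor gene adgrf8 fell by 1.85 ± 0.22 on the log2 scale, and urgcp fell by 2.202 ± 0.29, without overlap between groups.

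Of 32 pattern recognition genes in the table, 21 passed the filter on low counts. Among these 3 were lower (14.3%, against 6.68% of all genes tested) and none was higher. Only 4 of the 21 had a log2 fold change above 0, and the median was -0.22. The count of 3 was 1 without axenic C, conventional C or conventional F. The adaptor gene myd88, used by most Toll-like receptors, and the flagellin receptor gene tlr5b fell by 0.39 ± 0.11 and 0.51 ± 0.17. The call of myd88 was lost without axenic C, conventional C or conventional F, and that of tlr5b without axenic C, D, G or H, without conventional A, B, C, F or H and with 18 libraries in the model. The enzymes that make reactive oxygen and the antimicrobial metabolite itaconate fell as a group, with 8 of 14 lower and a median log2 fold change of -0.87, against -0.0076 over all genes tested. nox1, the NADPH oxidase of epithelia (chromosome 14, 41345175 to 41361847), ranged over 1.60 to 3.49 CPM (median 2.35) in axenic against 9.24 to 13.97 CPM (median 11.5) in conventional libraries (log2 -2.21 ± 0.19, edgeR adjusted p = 3.06e-07). Its organizer subunit noxo1a had 0.646 to 1.44 CPM (median 1.25) in axenic libraries and 1.84 to 5.08 CPM (median 3.14) in conventional ones (log2 -1.51 ± 0.26, edgeR adjusted p = 0.000519). ncf1, the organizer of the phagocyte oxidase, fell by 1.38 ± 0.17, and mpx, the myeloperoxidase of neutrophil granules, lay at 3.75 to 5.82 CPM (median 4.91) in axenic and 13.1 to 22.8 CPM (median 20.6) in conventional libraries (log2 -1.94 ± 0.15, edgeR adjusted p = 1.26e-07). For each of these genes every axenic library was below every conventional library. irg1l, related to the enzyme that makes itaconate (chromosome 14, 11427052 to 11430610), ranged over 1.42 to 2.71 CPM (median 1.80) in axenic against 9.37 to 80.5 CPM (median 26.6) in conventional libraries (log2 -3.997 ± 0.42, edgeR adjusted p = 3.91e-06). Conventional H lay far above the other conventional libraries, but the lowest conventional library was still above all axenic ones.

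Transcription factors of inflammation fell in 13 of 25 members of the NF-kB and STAT list, with a median of -0.28. stat4, which carries signals of interleukin 12 in mammals, had 2.3 to 3.82 CPM (median 2.90) in axenic libraries and 8.08 to 19.4 CPM (median 9.64) in conventional ones (log2 -1.93 ± 0.21, edgeR adjusted p = 5.04e-06). The factor genes cebpb and cebpd, which drive acute inflammatory genes, fell by 0.96 ± 0.13 and 0.84 ± 0.14, and rela, an NF-kB subunit, fell by 0.58 ± 0.12. cebpb lay at 17.9 to 32.5 CPM (median 24.8) in axenic and 36.8 to 58.4 CPM (median 47.5) in conventional libraries. The groups did not overlap for any of these 4 genes. jak3, the kinase of common-gamma-chain cytokine receptors, fell by 1.57 ± 0.34, with overlapping groups and values of 0.417 to 0.840 (median 0.591) CPM in axenic libraries. stat3, which carries signals of interleukin 6, fell by 0.37 ± 0.11, also with overlap, and was not called without conventional B or H.

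The list of inhibitors and other feedback regulators of inflammation was the immune list with the largest share of members called: 20 of 28 fell, with a median log2 fold change of -0.63. Its members dusp1 and atf3 are counted among immediate early genes too, and which factors drive the list in these heads was not tested. zc3h12a, an RNase that destroys inflammatory messenger RNAs (chromosome 16, 3982590 to 4001743), ranged over 0.582 to 1.35 CPM (median 0.887) in axenic against 2.64 to 6.35 CPM (median 4.56) in conventional libraries (log2 -2.39 ± 0.25, edgeR adjusted p = 2.96e-06). socs3a and socs3b encode suppressors of cytokine signalling, and socs3a (chromosome 3, 57423137 to 57425961) had 13.7 to 29.3 CPM (median 16.4) in axenic libraries and 32.0 to 68.8 CPM (median 44.7) in conventional ones (log2 -1.36 ± 0.19, edgeR adjusted p = 6.66e-05). socs3b lay at 17.4 to 21.5 CPM (median 19.8) in axenic and 25.96 to 40.6 CPM (median 31.6) in conventional libraries (log2 -0.74 ± 0.10, edgeR adjusted p = 7.35e-05). Axenic C was the highest axenic library for socs3a, still below all conventional libraries. nfkbiz, a nuclear cofactor of NF-kB (chromosome 1, 18716 to 23389), ranged over 12.5 to 22.0 CPM (median 18.3) in axenic against 31.6 to 41.6 CPM (median 35.6) in conventional libraries (log2 -1.04 ± 0.12, edgeR adjusted p = 1.17e-05). nfkbiaa, the inhibitor that holds NF-kB in the cytoplasm, fell by 0.79 ± 0.13. All 5 genes were lower in each axenic library than in each conventional library. Axenic C was also highest for nfkbiaa, but lowest for nfkbiz.

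**Figure D2:**
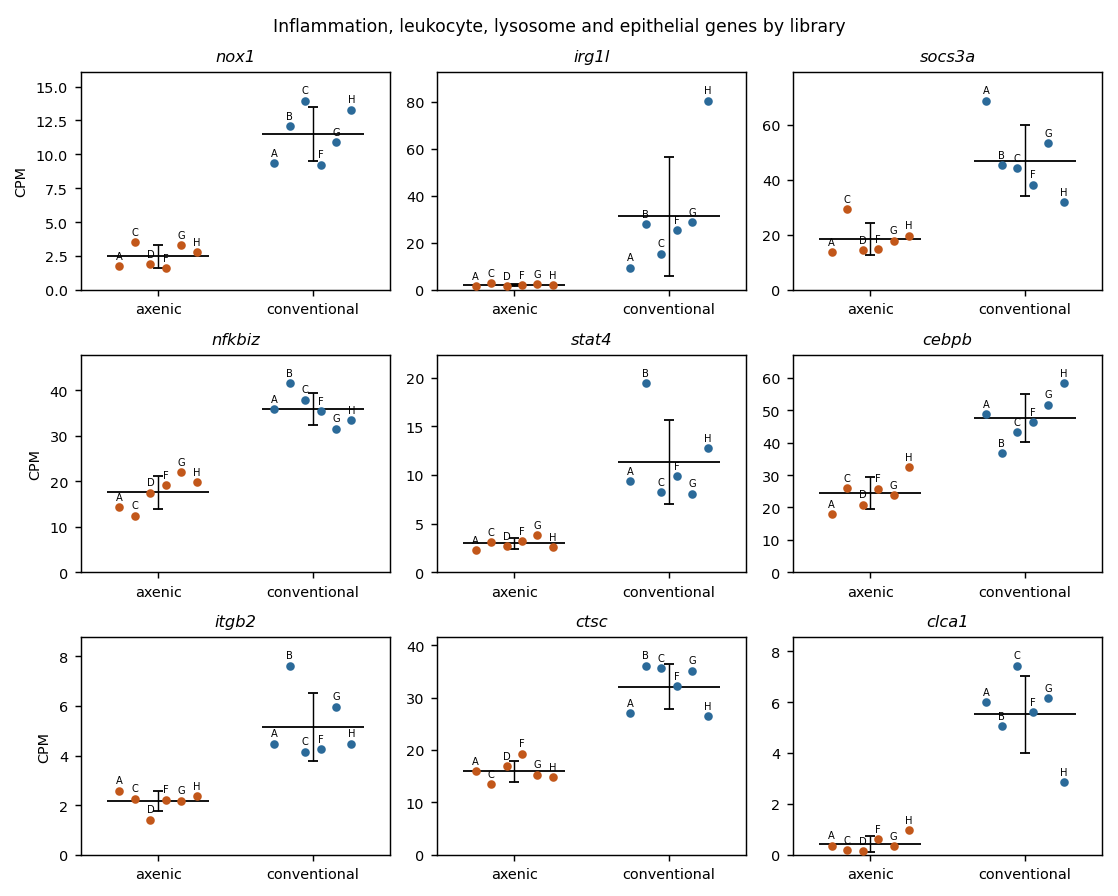
CPM in each axenic (orange) and conventional (blue) library of experiment 1 for 9 genes of inflammation, leukocytes, lysosomes and epithelia; letters name the libraries, the long line is the mean and the bar the SD of 6 libraries. In every panel the highest axenic library lies below the lowest conventional one, and conventional H stands far above the others for irg1l.

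Of 51 cytokine and chemokine genes in the table, 24 passed the filter on low counts. Of the 24 tested cytokine and chemokine genes, 7 were lower and 1 higher. il1b, the main inflammatory cytokine, had 0.245 to 0.517 CPM (median 0.357) in axenic libraries and 0.808 to 1.92 CPM (median 1.17) in conventional ones (log2 -1.78 ± 0.32, edgeR adjusted p = 0.00078). The chemokine genes cxcl18b and cxcl19, which attract neutrophils in zebrafish or belong to that family, fell by 1.18 ± 0.21 and 1.32 ± 0.28. cxcl8a, another neutrophil attractant, was not called, at 0.496 to 1.47 (median 0.778) CPM against 0.961 to 2.299 (median 1.48) CPM (log2 -0.78 ± 0.30, edgeR adjusted p = 0.0886). The chemokine that rose was cxcl12a, which guides migrating cells in development, by 0.62 ± 0.13. Of 17 interferon-induced genes 3 were lower (17.65%, against 6.68% of all genes tested), and groups overlapped for every gene of this list. isg15, a ubiquitin-like antiviral protein, and the ubiquitin ligase gene trim25 fell by 1.62 ± 0.31 and 0.58 ± 0.16, both with overlapping groups. irf1b, an interferon regulatory factor of the NF-kB and STAT list, fell by 1.152 ± 0.31, also with overlap.

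Leukocyte markers were lower. Of 16 markers shared by all leukocytes 8 fell, with a median of -0.66 and summed levels of 106 to 150.2 CPM in axenic and 144 to 193 CPM in conventional libraries. The adhesion subunit itgb2 lay at 1.42 to 2.59 CPM (median 2.24) in axenic and 4.16 to 7.63 CPM (median 4.49) in conventional libraries (log2 -1.25 ± 0.19, edgeR adjusted p = 0.000182). The actin-bundling protein gene lcp1 and the actin regulator coro1a fell by 1.08 ± 0.18 and 0.85 ± 0.12, and the phosphatase gene ptprc by 1.01 ± 0.25, the last with overlapping groups. Leaving out axenic A and F lowered the count from 8 to 5, and the part of any difference in leukocyte number was not tested.

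Of 21 neutrophil markers 10 fell and 2 rose. The 2 that rose, the carboxypeptidase gene cpa5 and the spermine synthase gene sms, are not specific to neutrophils. Neither call held without axenic A or conventional F, cpa5 was also lost without axenic G or H or conventional G or H, and sms without axenic C or F or conventional A, C or H. The summed level of the list was 528 to 838 CPM in axenic and 394 to 666 CPM in conventional libraries. The gelatinase gene mmp9 ranged over 2.52 to 5.68 CPM (median 4.36) in axenic against 7.92 to 16.2 CPM (median 13.2) in conventional libraries (log2 -1.56 ± 0.20, edgeR adjusted p = 4.21e-05), and the collagenase gene mmp13a fell by 1.101 ± 0.18. lyz, the lysozyme of neutrophils and macrophages, was not called (log2 -0.38 ± 0.22, edgeR adjusted p = 0.255), with 3.03 to 9.30 (median 3.996) CPM in axenic and 5.06 to 7.69 (median 6.33) CPM in conventional libraries. Of 28 macrophage and microglia markers 13 fell and 1 rose, the apolipoprotein gene apoc1, which the liver also makes. mfap4, a macrophage marker of zebrafish, had 0.213 to 1.29 CPM (median 0.832) in axenic libraries and 2.58 to 4.16 CPM (median 3.18) in conventional ones (log2 -2.03 ± 0.27, edgeR adjusted p = 5.16e-05). The pore-forming proteins mpeg1.1 and mpeg1.2 fell by 1.35 ± 0.26 and 1.70 ± 0.24, and grna, a granulin of myeloid cells, fell by 1.73 ± 0.24. acp5a, an acid phosphatase of macrophages and osteoclasts, lay at 0.736 to 2.05 CPM (median 0.984) in axenic and 2.23 to 4.78 CPM (median 4.13) in conventional libraries (log2 -1.78 ± 0.26, edgeR adjusted p = 0.000123). Groups did not overlap for these 5 macrophage genes. Lymphocyte markers stayed near the background, with 1 of 16 lower, the chemokine receptor gene ccr9a. The recombination gene rag1 of developing lymphocytes was not called (log2 0.35 ± 0.18, edgeR adjusted p = 0.196).

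Genes of antigen presentation and the lysosome were lower as well. Of 19 antigen presentation genes 6 were lower. Among them the class I gene mhc1zba fell by 0.67 ± 0.11, the beta-2-microglobulin-like gene b2ml by 0.37 ± 0.09 and the cathepsin S gene ctss2.2 by 1.03 ± 0.17. Of 56 lysosomal genes 29 fell, with a median of -0.35, and the summed level of the list separated the groups (968 to 1157 CPM in axenic and 1309 to 1464 CPM in conventional libraries). ctsl.1, a cathepsin L gene (chromosome 17, 27456804 to 27461321), ranged over 7.22 to 9.29 CPM (median 8.53) in axenic against 14.2 to 24.4 CPM (median 21.1) in conventional libraries (log2 -1.24 ± 0.12, edgeR adjusted p = 1.68e-06). ctsc, which activates granule proteases (chromosome 15, 43604032 to 43625549), had 13.4 to 19.3 CPM (median 15.6) in axenic libraries and 26.4 to 36.08 CPM (median 33.7) in conventional ones (log2 -1.01 ± 0.11, edgeR adjusted p = 3.93e-06). The lysosomal membrane protein gene lamp1a lay at 12.8 to 17.2 CPM (median 15.24) in axenic and 22.0 to 33.5 CPM (median 26.1) in conventional libraries, and it fell by 0.80 ± 0.11. The proteases ctsba, lgmn and ctsla were abundant and fell by 0.60 ± 0.09, 0.69 ± 0.10 and 0.45 ± 0.09. No axenic library reached the lowest conventional library for any of these 6 lysosomal genes. With axenic A and F left out, 25 lysosomal genes were called lower.

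Plasma proteins of the liver went the other way from leukocyte genes. Of 25 complement genes 6 rose. c3a.2, a copy of the central complement component (chromosome 1, 56229674 to 56266731), ranged over 11.9 to 36.5 CPM (median 15) in axenic against 3.71 to 8.01 CPM (median 5.31) in conventional libraries (log2 1.85 ± 0.25, edgeR adjusted p = 6.67e-05). c3b.2 and cfd, a second component 3 gene and the protease that starts the alternative pathway, rose by 0.79 ± 0.17 and 0.49 ± 0.12, and c9 of the membrane attack complex rose by 0.69 ± 0.16 with overlapping groups. Another copy, c3a.1, was not called, at 139.7 to 261 (median 215) CPM against 126 to 208 (median 166) CPM, nor was factor B (cfb, log2 0.03 ± 0.15, edgeR adjusted p = 0.929).

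The acute phase and antibacterial list split, with 12 higher and 7 lower of 31. Higher were the protease inhibitor gene a2ml, the copper carrier gene cp, the haemoglobin binder hp and the peptide gene leap2. a2ml had 33.02 to 65.4 CPM (median 45.8) in axenic libraries and 9.64 to 24.9 CPM (median 17.4) in conventional ones (log2 1.47 ± 0.20, edgeR adjusted p = 5.16e-05). cp lay at 76.0 to 124 CPM (median 93.3) in axenic and 45.9 to 64.2 CPM (median 56.5) in conventional libraries (log2 0.78 ± 0.11, edgeR adjusted p = 0.000111). leap2 rose by 2.06 ± 0.38 from a low level, and hp by 0.55 ± 0.12, each with overlapping groups. Lower were hamp, mmp9, mmp13a, the chemotactic protein gene lect2l and the tripartite-motif gene ftr83. hamp, the iron hormone hepcidin (chromosome 16, 50289916 to 50292583), ranged over 2.08 to 5.97 CPM (median 2.71) in axenic against 6.01 to 8.00 CPM (median 6.67) in conventional libraries (log2 -1.07 ± 0.21, edgeR adjusted p = 0.00143). Its groups were separated narrowly. lect2l and ftr83 fell by 0.67 ± 0.13 and 0.60 ± 0.12. The count of 12 higher fell to 7 without axenic F, conventional C or conventional G, and also without both axenic A and F. Liver genes as a whole were higher in 27 of 54, with summed levels of 3318 to 4374 CPM in axenic and 2064 to 3120 CPM in conventional libraries. The part of more liver RNA in the axenic pools in these rises was not tested.

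Genes that burn fat rose together. Of 48 genes of fatty acid oxidation and ketone metabolism 27 rose, with a median of 0.62. The carnitine transferases that admit fatty acids to mitochondria had the smallest adjusted p-values of the list: cpt1ab (chromosome 25, 23591990 to 23645806) had 20.8 to 32.4 CPM (median 24.3) in axenic libraries and 4.85 to 9.02 CPM (median 6.64) in conventional ones (log2 1.91 ± 0.15, edgeR adjusted p = 2.06e-07). cpt1b, the muscle form, lay at 8.72 to 16.3 CPM (median 10.5) in axenic and 1.03 to 2.67 CPM (median 1.397) in conventional libraries (log2 2.70 ± 0.23, edgeR adjusted p = 3.06e-07). The lowest axenic library of each was above the highest conventional one. The carnitine carrier slc25a20 ranged over 15.5 to 30.4 CPM (median 22.8) in axenic against 6.25 to 11.5 CPM (median 9.13) in conventional libraries and rose by 1.299 ± 0.15. hadhb of the mitochondrial beta-oxidation complex and the peroxisomal transferase crot rose by 1.08 ± 0.13 and 0.94 ± 0.11. Axenic A and F were the 2 highest axenic libraries for 16 of the 27 genes that rose (59.3%), against 33.8% of all genes called higher.

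Lipid droplet and PPAR genes divided into 10 higher and 4 lower of 34, or 2 lower without axenic C or conventional C, F or G. angptl4, a secreted inhibitor of lipoprotein lipase and a target of PPAR factors (chromosome 2, 24536762 to 24542518), had 31.2 to 52.4 CPM (median 37.2) in axenic libraries and 6.20 to 8.29 CPM (median 7.22) in conventional ones (log2 2.498 ± 0.13, edgeR adjusted p = 3.05e-09). Lipoprotein lipase itself, lpl, lay at 129.9 to 258 CPM (median 184) in axenic and 303 to 371 CPM (median 330.5) in conventional libraries (log2 -0.83 ± 0.13, edgeR adjusted p = 0.000179). The inhibitor and the enzyme lay apart in opposite directions, with no overlap between groups for either. The zinc finger factors klf11b and klf11a rose by 2.54 ± 0.20 and 1.79 ± 0.18. The liver fatty acid carrier fabp10a ranged over 165 to 318 CPM (median 200.4) in axenic against 49.4 to 108 CPM (median 73.4) in conventional libraries and rose by 1.56 ± 0.18. plin2, a coat protein of droplets, was not called (log2 0.86 ± 0.32, edgeR adjusted p = 0.0735).

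Genes of sterol synthesis rose, while the list of sterol export and bile acid genes split. Of 35 genes of cholesterol synthesis and uptake 17 rose and 1 fell, with a median of 0.79. cyp51, which removes a methyl group from lanosterol (chromosome 19, 598657 to 617246), had 8.195 to 83.9 CPM (median 19.2) in axenic libraries and 4.04 to 5.93 CPM (median 4.68) in conventional ones (log2 2.80 ± 0.46, edgeR adjusted p = 0.000352). hmgcra, the rate-limiting reductase, was highest in axenic A and F and lowest in axenic G at 12.5 CPM (axenic median 22.4), against 7.05 to 12.8 (median 10.6) CPM in conventional libraries (log2 1.81 ± 0.37, edgeR adjusted p = 0.00245). The demethylation enzyme msmo1 rose by 1.59 ± 0.35 and the last reductase dhcr7 by 0.79 ± 0.16. Axenic A and F were the 2 highest axenic libraries for 16 of the 17 genes, against 33.8% of all genes called higher. Every axenic library was above every conventional one for only 3 of the 35 genes. The lower axenic libraries overlapped the conventional range for hmgcra and msmo1 among others. Summed levels of the list overlapped too, at 471 to 981 CPM in axenic and 487 to 590 CPM in conventional libraries. Without A and F the count was 6, and limma with quality weights called 11. The gene that fell was srebf1, the factor that drives fatty acid synthesis under control of the liver X receptor, and it lay at 47.4 to 87.0 CPM (median 53.2) in axenic and 90.7 to 109.8 CPM (median 102) in conventional libraries (log2 -0.73 ± 0.13, edgeR adjusted p = 0.000562). Other genes of lipid transfer and uptake were lower, and those named next are called members of the export and bile acid list counted below. abca1a, the exporter of cellular cholesterol, ranged over 325 to 460.2 CPM (median 391) in axenic against 590.0 to 683 CPM (median 605) in conventional libraries (log2 -0.67 ± 0.10, edgeR adjusted p = 0.000107). The phospholipid transfer protein gene pltp and mylipa, which degrades the low density lipoprotein receptor, fell by 0.86 ± 0.14 and 0.62 ± 0.12. Groups did not overlap for these 4 genes. Export and bile acid genes as a list had 5 higher and 6 lower of 25 with a median of 0.03, and 3 higher without axenic A and F. The bile salt pumps abcb11a and abcb11b rose by 1.32 ± 0.22 and 0.87 ± 0.18. nr0b2a, a repressor induced by the bile acid receptor, had 2.36 to 3.44 CPM (median 2.78) in axenic libraries and 6.45 to 18.2 CPM (median 10.28) in conventional ones (log2 -1.999 ± 0.22, edgeR adjusted p = 6.70e-06).

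**Figure D3:**
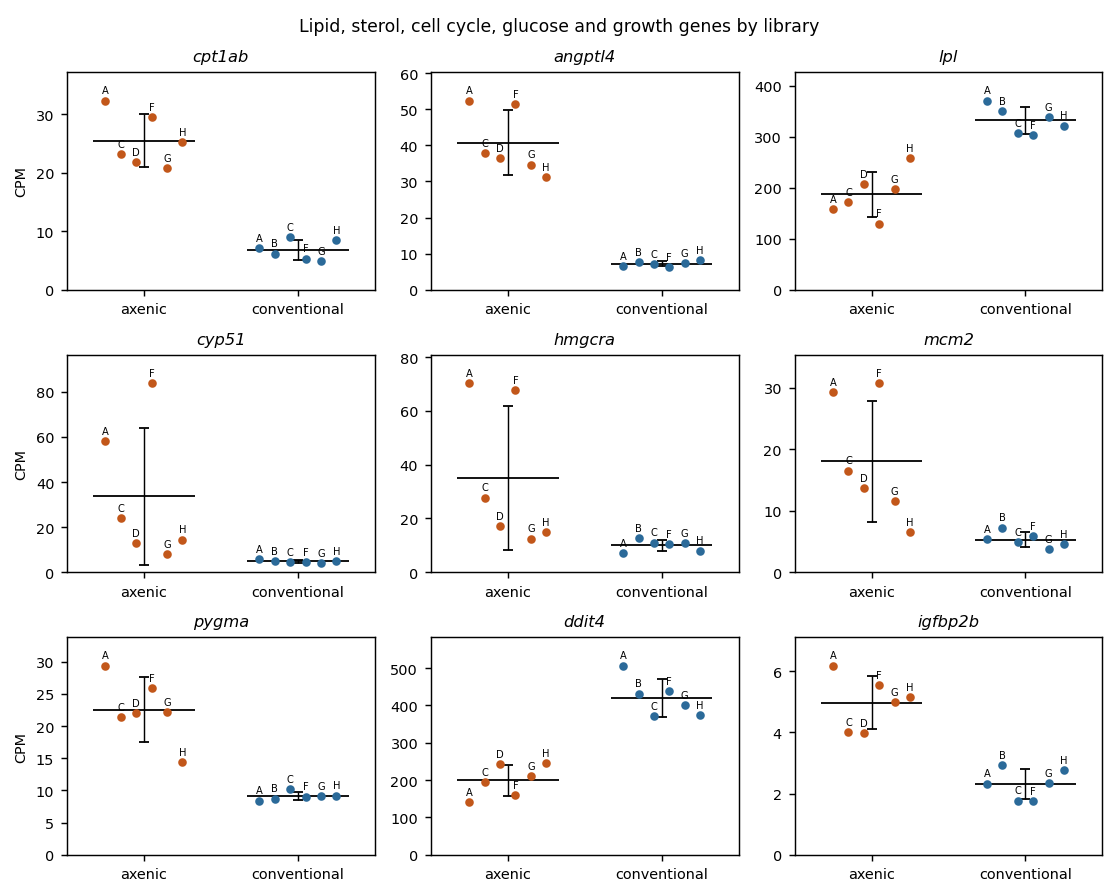
CPM in each axenic (orange) and conventional (blue) library of experiment 1 for 9 genes of fat, sterol, cell cycle, glucose and growth; letters name the libraries, the long line is the mean and the bar the SD of 6 libraries. Axenic A and F stand above the other axenic libraries for cyp51, hmgcra and mcm2, while for ddit4, lpl, cpt1ab and angptl4 all 6 axenic libraries lie outside the conventional range.

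Lipoprotein genes rose in 13 of 29 and fell in 3. apobb.2, one of the genes for the scaffold of lipoprotein particles, lay at 3.05 to 31.0 CPM (median 6.67) in axenic and 0.160 to 0.971 CPM (median 0.281) in conventional libraries (log2 4.76 ± 0.69, edgeR adjusted p = 0.000114). Axenic F was highest, and all 6 axenic libraries were above all conventional ones. apoa2 and apoa1b, carried on high density particles, rose by 1.38 ± 0.14 and 1.27 ± 0.17, while the endothelial lipase gene lipg fell by 0.65 ± 0.15. The count of 13 fell to 8 without axenic A or without conventional H. In fatty acid synthesis 9 of 34 genes rose and 3 fell. The desaturase fads2 and the elongases elovl2 and elovl4b, which lengthen polyunsaturated fatty acids, rose by 2.59 ± 0.42, 1.76 ± 0.31 and 1.51 ± 0.17. The carboxylase acacb ranged over 46 to 62.8 CPM (median 54.6) in axenic against 31.4 to 39.4 CPM (median 35.8) in conventional libraries (log2 0.62 ± 0.09, edgeR adjusted p = 0.000177). The delta-9 desaturase scd had 0.709 to 1.55 CPM (median 0.964) in axenic libraries and 1.91 to 3.03 CPM (median 2.57) in conventional ones (log2 -1.25 ± 0.23, edgeR adjusted p = 0.000873). Groups were apart for these 5 genes.

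Sugar metabolism was higher in 31 of 66 genes and lower in 2, with a median of 0.29. Several of the genes that rose are specific to muscle. pygma, which breaks down muscle glycogen (chromosome 21, 28445052 to 28472239), lay at 14.4 to 29.4 CPM (median 22.1) in axenic and 8.41 to 10.26 CPM (median 9.08) in conventional libraries (log2 1.31 ± 0.13, edgeR adjusted p = 2.60e-06). The muscle mutase pgam2 and the pyruvate kinase pkmb rose by 1.18 ± 0.12 and 1.17 ± 0.12. The glucose transporter slc2a1a ranged over 26.04 to 34.3 CPM (median 27.8) in axenic against 15.09 to 19.9 CPM (median 18.6) in conventional libraries (log2 0.70 ± 0.09, edgeR adjusted p = 4.63e-05). All 6 axenic libraries were above all conventional libraries for these 4 genes. slc2a6, a hexose transporter of lysosomes in mammals, fell by 2.87 ± 0.42. Genes of liver glucose output were not called: pck1 lay at 258 to 406 (median 312) CPM in axenic and 286 to 498 (median 339.5) CPM in conventional libraries (log2 -0.15 ± 0.13, edgeR adjusted p = 0.49), and g6pca.1 gave 0.21 ± 0.19 (edgeR adjusted p = 0.497). Without axenic A and F, 20 of the 66 were called higher.

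The list of fasting and FoxO genes did not rise as a group. Most genes of fatty acid oxidation are counted in their own list, where 27 of 48 rose. Of 38 fasting and FoxO genes 15 fell and 3 rose. ddit4, an inhibitor of the growth kinase mTORC1 (chromosome 12, 48340133 to 48342259), had 142 to 245 CPM (median 202) in axenic libraries and 372 to 506 CPM (median 416) in conventional ones (log2 -1.08 ± 0.13, edgeR adjusted p = 1.33e-05). irs2b, an adaptor of the insulin receptor, lay at 148 to 224 CPM (median 193) in axenic and 280.3 to 323 CPM (median 305) in conventional libraries (log2 -0.68 ± 0.10, edgeR adjusted p = 0.000134). The autophagy receptor gene sqstm1 and the factor gene foxo1b fell by 0.69 ± 0.11 and 0.74 ± 0.16. fbxo32, a ubiquitin ligase of muscle wasting, fell by 0.58 ± 0.17 with overlapping groups, and was not called without axenic A, C or F or conventional G. The 3 that rose were txnipb, an inhibitor of glucose uptake, sesn3, an inhibitor of mTORC1, and pdk4, a brake on glucose oxidation, by 1.13 ± 0.13, 0.74 ± 0.10 and 0.64 ± 0.12. Without axenic A and F 5 of the 38 genes were called lower. Of 32 genes driven by the amino acid stress factor ATF4, 9 fell and 3 rose, or 5 rose without axenic H. trib3, a pseudokinase, ranged over 22.4 to 30.4 CPM (median 25.2) in axenic against 41.6 to 56.7 CPM (median 44.3) in conventional libraries (log2 -0.85 ± 0.10, edgeR adjusted p = 7.90e-06). ddit3, a stress factor shared with the endoplasmic reticulum pathway, had 9.49 to 15.8 CPM (median 13.8) in axenic libraries and 26.03 to 30.8 CPM (median 27.3) in conventional ones (log2 -1.05 ± 0.11, edgeR adjusted p = 2.52e-06). atf5b and atf3 fell by 0.77 ± 0.08 and 0.88 ± 0.16, and no groups overlapped for these 4 genes. Endoplasmic reticulum stress genes were lower in 4 of 28 (14.3%) and proteasome genes in 2 of 49 (4.08%), against 6.68% of all genes tested. The former count was 2 without axenic D, F, G or H or conventional B, C, G or H, and 3 without any other single library.

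In the glucocorticoid and stress axis list, which holds receptor targets, releasing hormones and steroid enzymes, 7 of 30 genes were lower and 1 higher. Some are counted in other lists too: dusp1 among inflammation inhibitors and immediate early genes, and ddit4 among fasting and ATF4 genes. klf9 (chromosome 5, 26075230 to 26078165) lay at 41.0 to 83.1 CPM (median 69.9) in axenic and 97.4 to 129.9 CPM (median 109) in conventional libraries (log2 -0.75 ± 0.13, edgeR adjusted p = 0.000557). The phosphatase gene dusp1 fell by 0.72 ± 0.14, tsc22d3 by 0.37 ± 0.09 and the chaperone gene fkbp5 by 0.66 ± 0.13, the last with overlapping groups. crhb, the hypothalamic releasing hormone, was not called, at 3.12 to 8.27 (median 4.60) CPM against 3.095 to 7.55 (median 4.92) CPM. Without axenic A and F 4 members were called lower.

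Immediate early genes, which respond within minutes to neuronal activity and to growth or stress signals, fell in 27 of 47, with a median of -0.51. btg2 ranged over 20.0 to 41.0 CPM (median 26.9) in axenic against 42.1 to 72.4 CPM (median 52.7) in conventional libraries (log2 -0.98 ± 0.15, edgeR adjusted p = 0.000157). egr3 had 4.67 to 5.67 CPM (median 4.88) in axenic libraries and 7.28 to 10.9 CPM (median 8.80) in conventional ones (log2 -0.83 ± 0.12, edgeR adjusted p = 0.000134). junba and junbb fell by 0.80 ± 0.11 and 0.79 ± 0.12, and the survival gene mcl1b by 0.62 ± 0.09, with no overlap between groups. fosab, egr1 and npas4a, used as marks of neuronal activity, fell by 0.88 ± 0.23, 0.57 ± 0.14 and 0.83 ± 0.20. npas4a, which is largely confined to neurons in mammals, lay at 21.7 to 51.7 CPM (median 38.2) in axenic and 42.7 to 111 CPM (median 62.5) in conventional libraries, so the groups overlapped. The trophic factor bdnf was not called (log2 -0.11 ± 0.12, edgeR adjusted p = 0.614), with axenic D highest. The clock list was near the background, with 4 of 51 lower. Of these nr1d4b, tefb and bhlhe40 fell by 0.82 ± 0.19, 0.43 ± 0.09 and 0.30 ± 0.08, while per1b was not called (-0.24 ± 0.10, edgeR adjusted p = 0.119). The clock count was 8 without axenic D and 7 without axenic H.

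Transcripts of the respiratory chain were higher from both genomes. Of 89 nuclear genes of oxidative phosphorylation 48 rose, with a median of 0.45, and of the 13 genes encoded in mitochondria 10 rose, with a median of 0.38. atp5mc1, a subunit of the ATP synthase rotor (chromosome 3, 23599290 to 23604396), ranged over 20.4 to 41.9 CPM (median 27.8) in axenic against 8.81 to 15.4 CPM (median 13.1) in conventional libraries (log2 1.25 ± 0.18, edgeR adjusted p = 0.000122). cox5ab of cytochrome oxidase and atp5f1c of the synthase rose by 0.76 ± 0.14 and 0.68 ± 0.11, with no overlap. mt-nd1, encoded in the mitochondrial genome, had 308 to 502 CPM (median 378) in axenic libraries and 234 to 298 CPM (median 253) in conventional ones (log2 0.55 ± 0.11, edgeR adjusted p = 0.0016). mt-atp6 and mt-cyb rose by 0.87 ± 0.18 and 0.56 ± 0.13 with overlapping groups. Mitochondrially encoded transcripts took 1.23% ± 0.310 of axenic and 0.923% ± 0.0604 of conventional counts (SD, n = 6 each, exact two-sided permutation test, p = 0.0108, where the smallest possible is 0.00216). After structural RNAs were set aside the shares were 2.34% ± 0.366 and 1.93% ± 0.0696 (same exact test, p = 0.00433). Axenic C, which had the smallest share of structural RNAs, was the highest axenic library for 36 of the 48 nuclear genes, against 19.7% of all genes called higher. The part of the structural RNA share in this was not tested. Without A and F 30 nuclear genes were called. Few ribosomal protein genes were called, but most lay slightly above 0. Of 83 cytoplasmic ribosomal protein genes 6 were called higher, with 12 by DESeq2 and 45 at an unadjusted p below 0.05, and 81 had a log2 fold change above 0 (median 0.28). Of 74 mitochondrial ribosomal protein genes 5 were called higher and 1 lower, and 64 lay above 0 (median 0.19). Relative to the conventional mean, the median over the cytoplasmic genes was 0.79 in axenic C, 0.37 in A, 0.20 in G and 0.17 in H, 0.04 in D and -0.03 in F. Without axenic C the median over the list was 0.15 for cytoplasmic and 0.13 for mitochondrial genes, and 79 of 83 and 48 of 74 lay above 0. The 6 cytoplasmic calls were 1 without conventional A, 2 without axenic A, axenic C or conventional F and 3 without conventional B, against 14 without axenic D, 18 without axenic F and 11 without axenic H. The 5 mitochondrial calls were 1 without axenic A, axenic F or conventional B, 2 without axenic C or conventional C, F or G and 3 without axenic D or conventional A or H.

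Antioxidant genes were higher in 12 of 39 and lower in 1. The lipid peroxidase gpx4a lay at 104 to 192 CPM (median 154) in axenic and 63.8 to 94.1 CPM (median 71.2) in conventional libraries (log2 0.97 ± 0.14, edgeR adjusted p = 9.56e-05). Catalase (cat) ranged over 30.4 to 44.4 CPM (median 37.3) in axenic against 18.04 to 27.0 CPM (median 20.1) in conventional libraries (log2 0.84 ± 0.11, edgeR adjusted p = 2.99e-05). The peroxiredoxin gene prdx2 and the glutathione transferase gene gsta.1 rose by 0.78 ± 0.11 and 0.99 ± 0.12. Groups were apart for these 4 genes. The gene that fell was keap1b, the inhibitor of the factor Nrf2, by 0.54 ± 0.11. Selenoproteins rose in 9 of 32 and fell in 1, and the plasma selenium carrier selenop rose by 0.62 ± 0.08. Of 42 genes of xenobiotic metabolism 9 rose and 2 fell. The cytochrome genes cyp2k18 and cyp3a65 rose by 1.31 ± 0.23 and 0.62 ± 0.10, and ugt1a1 by 0.81 ± 0.15. cyp1a, the standard target of the aryl hydrocarbon receptor, was not called, at 22.6 to 29.9 (median 25.7) CPM against 18.8 to 28.2 (median 25.8) CPM. The repressor of that receptor, ahrra, had 0.0818 to 0.546 CPM (median 0.393) in axenic libraries and 0.807 to 2.08 CPM (median 1.09) in conventional ones (log2 -1.78 ± 0.36, edgeR adjusted p = 0.00213). Of 33 heat shock genes 6 rose, among them hspb1 by 1.13 ± 0.18, and 1 fell. The count of 6 was 3 without axenic C or conventional C and 2 without axenic A and F.

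Hormone genes of the pituitary were not called in any of 15 members by edgeR's test, with 1 lower at an unadjusted p below 0.05 and 0 called by DESeq2 or limma. Growth hormone, gh1, lay at 38.9 to 69.3 (median 54.4) CPM in axenic and 54.5 to 80.5 (median 69.2) CPM in conventional libraries (log2 -0.33 ± 0.13, edgeR adjusted p = 0.0949). prl and pomca, the genes of prolactin and of the precursor of corticotropin, gave -0.36 ± 0.23 and 0.30 ± 0.17 and were not called. In the growth hormone and insulin-like growth factor axis 5 of 33 genes rose and 10 fell. The binding proteins igfbp2b and igfbp2a, which hold the growth factors in plasma, rose. igfbp2b lay at 3.97 to 6.18 CPM (median 5.07) in axenic and 1.75 to 2.93 CPM (median 2.33) in conventional libraries (log2 1.097 ± 0.17, edgeR adjusted p = 0.000265), and igfbp2a rose by 0.70 ± 0.12. igf2r, which clears one of these factors into lysosomes, ranged over 47.0 to 56.4 CPM (median 54.1) in axenic against 66.4 to 76.5 CPM (median 70.4) in conventional libraries (log2 -0.42 ± 0.07, edgeR adjusted p = 0.000619). No groups overlapped for these 3 genes. igf1 and igfbp1a were not called (log2 0.36 ± 0.31 and -0.51 ± 0.25). Without axenic A and F 2 members of the axis were called lower and 3 higher. Of 20 thyroid hormone genes 3 rose and 1, klf9, fell. tg, the hormone precursor of the thyroid in the throat, had 14.2 to 26.9 CPM (median 19.7) in axenic libraries and 7.92 to 14.2 CPM (median 11.3) in conventional ones (log2 0.88 ± 0.16, edgeR adjusted p = 0.000775). The deiodinase gene dio1 and the plasma carrier gene ttr, both also made in liver, rose by 1.23 ± 0.16 and 1.296 ± 0.15.

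Of 38 cartilage genes 26 rose and 2 fell, with a median of 1.153, the largest of the 70 lists. col2a1a, the main collagen of cartilage (chromosome 8, 21195420 to 21219473), lay at 417 to 912 CPM (median 613) in axenic and 122 to 153 CPM (median 134) in conventional libraries (log2 2.28 ± 0.15, edgeR adjusted p = 4.23e-08). col11a2 ranged over 62.4 to 162 CPM (median 104) in axenic against 17.9 to 24.5 CPM (median 20.7) in conventional libraries (log2 2.45 ± 0.18, edgeR adjusted p = 1.17e-07). col11a1a and col9a1a rose by 1.95 ± 0.14 and 1.69 ± 0.14, and col10a1a, of hypertrophic cartilage and of bone cells in fish, by 2.42 ± 0.22. acana, the proteoglycan aggrecan, rose by 0.31 ± 0.10 with overlapping groups, a call lost without axenic A, D, G or H, without conventional A, C, F or G and with 18 libraries. Every axenic library was above every conventional library for the 5 collagens. Axenic A and F were the 2 highest for 18 of the 26 genes that rose (69.2%), against 33.8% of all genes called higher. Bone, tooth and enamel genes rose in 12 of 42 and fell in 4. enam, of the tooth covering, had 4.09 to 21.6 CPM (median 10.0) in axenic libraries and 0.961 to 1.94 CPM (median 1.28) in conventional ones (log2 3.04 ± 0.35, edgeR adjusted p = 1.28e-05). ifitm5, a membrane protein of osteoblasts, lay at 1.02 to 4.24 CPM (median 1.46) in axenic and 0 to 0.405 CPM (median 0.296) in conventional libraries (log2 2.73 ± 0.46, edgeR adjusted p = 0.000478). sp7, the osteoblast factor, rose by 0.61 ± 0.12, col1a1a by 1.89 ± 0.18 and the matrix protein gene sparc by 1.102 ± 0.12. The genes that fell included ctsk, the collagenase of osteoclasts, and tnfrsf11b, a decoy receptor that restrains osteoclasts. ctsk ranged over 2.29 to 6.54 CPM (median 4.77) in axenic against 7.42 to 12.1 CPM (median 10.0) in conventional libraries (log2 -1.05 ± 0.20, edgeR adjusted p = 0.00125), and tnfrsf11b fell by 1.07 ± 0.21. In connective tissue 60 of 95 matrix genes rose. The 1 that fell was col8a1b, by 1.146 ± 0.16, while the gelatinase gene mmp2 rose by 1.36 ± 0.14.

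Skeletal muscle genes rose in 64 of 98, with a median of 0.53 and summed levels of 19860 to 22800 CPM in axenic and 13890 to 17330 CPM in conventional libraries. ckmt2a, the mitochondrial creatine kinase, had 29.1 to 54.5 CPM (median 46.8) in axenic libraries and 8.09 to 16.01 CPM (median 14.9) in conventional ones (log2 1.76 ± 0.17, edgeR adjusted p = 1.29e-06). The fast troponin gene tnni2b.2 lay at 31.8 to 34.4 CPM (median 32.6) in axenic and 12.1 to 18.3 CPM (median 16.4) in conventional libraries (log2 1.05 ± 0.10, edgeR adjusted p = 1.07e-06). The myosin light chain gene mylz3 and the myosin heavy chain gene myhz2 rose by 1.03 ± 0.10 and 0.58 ± 0.11. In this list the groups of all 4 named genes were apart. Heart muscle genes rose in 9 of 24, with myh6 and myh7l up by 1.49 ± 0.26 and 1.57 ± 0.21.

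Cell cycle genes rose in 41 of 84, with a median of 0.89. mcm5, of the replication helicase, ranged over 3.60 to 15.7 CPM (median 8.55) in axenic against 1.42 to 3.59 CPM (median 2.61) in conventional libraries (log2 1.83 ± 0.28, edgeR adjusted p = 0.000215). Its lowest axenic value, in H, lay just above the highest conventional one. mcm2 had 6.54 to 30.8 CPM (median 15.11) in axenic libraries and 3.72 to 7.26 CPM (median 5.16) in conventional ones and rose by 1.77 ± 0.29. The clamp gene pcna and the proliferation marker mki67 rose by 1.21 ± 0.23 and 1.79 ± 0.37, both with overlapping groups. Axenic H was the lowest axenic library for 40 of the 41 genes, against 40.8% of all genes called higher. Axenic A and F were the 2 highest for 31 of the 41 (75.6%), against 33.8% of all genes called higher. Without A and F the count was 18.

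Skin genes rose in 25 of 66 and fell in 3. krtt1c19e, a keratin of basal skin cells (chromosome 19, 5339364 to 5345932), lay at 41.0 to 127 CPM (median 71.6) in axenic and 6.14 to 13.3 CPM (median 10.4) in conventional libraries (log2 2.85 ± 0.22, edgeR adjusted p = 1.45e-07). krt5, of the same layer in mammals, ranged over 121 to 222 CPM (median 163) in axenic against 43.3 to 68.0 CPM (median 52.9) in conventional libraries (log2 1.59 ± 0.13, edgeR adjusted p = 3.06e-07). The keratin genes cyt1, cyt1l and krt4 rose by 1.51 ± 0.10, 1.96 ± 0.18 and 1.16 ± 0.16, and the tight junction gene cldn1 by 0.72 ± 0.09. krt96 went the other way: it had 6.25 to 12.9 CPM (median 8.47) in axenic libraries and 13.2 to 41.0 CPM (median 22.3) in conventional ones (log2 -1.52 ± 0.25, edgeR adjusted p = 0.000424). Without conventional F 6 skin genes were called lower. Ionocyte genes were near the background, with 2 higher and 3 lower of 38, among them the ammonia channel gene rhcga, which fell by 0.95 ± 0.18. Pigment cell genes rose in 13 of 39 and fell in 3. tyrp1b, of melanin synthesis, and gch2, of yellow pteridine synthesis, rose by 0.73 ± 0.11 and 1.21 ± 0.21, and tspan36 fell by 0.62 ± 0.12. Without axenic A and F 8 pigment genes were called higher.

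In the eye, photoreceptor genes rose in 38 of 75, with a median of 0.45. The cone opsin opn1lw2, for long wavelengths, lay at 45.97 to 142 CPM (median 128) in axenic and 20.0 to 25.4 CPM (median 21.4) in conventional libraries (log2 2.34 ± 0.20, edgeR adjusted p = 3.06e-07). opn1mw1 and opn1sw2, for middle and short wavelengths, rose by 1.38 ± 0.13 and 1.06 ± 0.12. opn1sw1, for ultraviolet light, ranged over 374 to 689 CPM (median 518) in axenic against 158 to 193 CPM (median 167) in conventional libraries (log2 1.57 ± 0.13, edgeR adjusted p = 2.46e-07). The rod opsin rho rose less, by 0.83 ± 0.10, and the cone kinase grk7a by 1.00 ± 0.12. Groups were apart for all 6 genes. Axenic A and F were the 2 highest for 5 of the 38 that rose (13.2%), against 33.8% of all genes called higher. Visual cycle genes rose in 13 of 37 and fell in 1. bco1l, a carotenoid oxygenase, had 4.99 to 10.22 CPM (median 7.67) in axenic libraries and 1.82 to 3.45 CPM (median 2.85) in conventional ones (log2 1.45 ± 0.20, edgeR adjusted p = 6.32e-05). rgrb and rlbp1a, which handle retinal and its carriers, rose by 0.70 ± 0.16 and 0.64 ± 0.16, while the isomerase rpe65a was not called (log2 0.35 ± 0.17, edgeR adjusted p = 0.169). The count of 13 was 6 without axenic A, 8 without conventional A and 8 without both axenic A and F. Lens genes rose in 8 of 62, near the background, with mipa up by 0.51 ± 0.09 and cryaa by 0.38 ± 0.10, and that count was 5 without conventional F.

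Among genes of the nervous system, many glial genes rose and neuronal lists stayed near the background in their counts of calls. The share of brain in the pools was not measured, and whether these transcripts came from brain or eye was not tested. Of 37 radial glia and astrocyte markers 15 rose and 1 fell. fabp7a, the fatty acid carrier of radial glia (chromosome 17, 15433518 to 15435887), lay at 20.4 to 41.9 CPM (median 32.7) in axenic and 13.2 to 18.01 CPM (median 15.3) in conventional libraries (log2 1.06 ± 0.14, edgeR adjusted p = 3.36e-05). gfap, the glial filament, rose by 0.59 ± 0.14 with overlapping groups, and the prostaglandin synthase gene ptgdsb.2 ranged over 37.7 to 50.2 CPM (median 40.4) in axenic against 17.6 to 26.3 CPM (median 21.6) in conventional libraries (log2 0.94 ± 0.10, edgeR adjusted p = 5.18e-06). Axenic C was the highest library for all 3 glial genes. Over the 15 markers that rose, it was the highest axenic library for 7, against 19.7% of all genes called higher. Of 30 myelin and oligodendrocyte markers 10 rose. cspg4, a proteoglycan of oligodendrocyte precursors and also of pericytes, had 24.1 to 45.3 CPM (median 28.8) in axenic libraries and 10.1 to 13.2 CPM (median 11.3) in conventional ones (log2 1.51 ± 0.15, edgeR adjusted p = 1.75e-06). The myelin protein gene mbpa rose by 0.41 ± 0.09. The count was 5 without axenic C, 6 without conventional F or H and 6 without axenic A and F. Of 51 neural progenitor and neurogenesis genes 10 rose. The tubulin genes tubb5 and tuba1a rose by 1.72 ± 0.24 and 0.96 ± 0.14, the former with overlapping groups.

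Neurotransmitter genes were rarely called. In the glutamate list 3 of 62 genes rose, among them the glial transporter slc1a2a by 0.48 ± 0.09, and 1 rose without axenic A, C or F, without conventional A, F, G or H or without both axenic A and F. In the GABA and glycine list 4 of 42 rose, among them the glycine transporter slc6a9 by 0.28 ± 0.07, and 1 fell, and in the monoamine list 5 of 54 rose and 1 fell. The markers of transmitter type named here were not called. gad1b of GABA neurons lay at 85.9 to 101 (median 95.2) CPM in axenic and 78.5 to 93.5 (median 86.7) CPM in conventional libraries (log2 0.14 ± 0.07, edgeR adjusted p = 0.218). slc17a7a of glutamate neurons gave 0.09 ± 0.13, and th of dopamine neurons 0.25 ± 0.16. tph2 and slc6a4a of serotonin neurons gave -0.09 ± 0.21 and 0.07 ± 0.11. The monoamine genes that rose included gch2, a pigment gene, and comtd1, which resembles a methyltransferase of catecholamines, by 2.21 ± 0.37. Of 115 genes of synaptic vesicle release 8 rose and 6 fell. syn1 rose by 0.42 ± 0.09 and snap25b by 0.32 ± 0.08, while syngr2a lay at 28.1 to 31.3 CPM (median 29.4) in axenic and 40.0 to 50.4 CPM (median 42.2) in conventional libraries (log2 -0.56 ± 0.08, edgeR adjusted p = 8.85e-05). sv2 fell by 0.60 ± 0.17, and was not called without conventional C. Of 81 potassium channel genes 7 fell and 1 rose, and of 61 sodium and calcium channel genes 1 rose and 1 fell. Only 22 of the 81 potassium channel genes had a log2 fold change above 0 (median -0.12). At an unadjusted p below 0.05 in edgeR's test 13 of them were lower and 1 higher. The 8 synaptic rises ranged from 5 to 13 over fits that left out single libraries (5 without axenic D or F or without conventional A, C, F, G or H, and 13 without axenic H). Without axenic A and F 3 rose and 2 fell, and 2 potassium channel genes fell. The 6 falls were 3 without conventional C, and the potassium channel falls were 3 without axenic A or conventional C and 4 without axenic G, conventional B or conventional G. Of 48 peptide hormone genes 2 rose, among them the processing enzyme cpe by 0.29 ± 0.08, and 1, the somatostatin sst2, fell by 1.14 ± 0.25. The appetite peptides npy and agrp were not called (log2 0.57 ± 0.27 and -0.60 ± 0.33, edgeR adjusted p = 0.169 and 0.242).

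Some genes of organs behind the head were also higher, and some were lower. Intestinal genes rose in 12 of 54 and fell in 7, with a median of 0.14 and log2 fold changes from -3.655 to 2.388. rbp2b, a retinol carrier of gut cells, ranged over 5.46 to 14.6 CPM (median 9.46) in axenic against 1.52 to 2.12 CPM (median 1.72) in conventional libraries (log2 2.39 ± 0.21, edgeR adjusted p = 6.80e-07). fabp2 and apoa1a, of fat absorption, rose by 0.78 ± 0.16 and 1.09 ± 0.21. Without axenic A 7 rather than 12 intestinal genes rose. Without both axenic A and F 6 rose and 8 fell. Exocrine pancreas genes rose in 8 of 22 and fell in 2. Of this list prss59.1 rose by 0.46 ± 0.11 and prss1 was not called (0.42 ± 0.14, edgeR adjusted p = 0.0529). prss1 was called in 5 of the 7 other analyses, and also without axenic A, axenic F or conventional A and without both axenic A and F. The count of 8 was 4 without axenic G or conventional G. Among liver genes gc, the vitamin D carrier, had 62.9 to 92.9 CPM (median 84.2) in axenic libraries and 24.6 to 42.5 CPM (median 31.9) in conventional ones (log2 1.299 ± 0.12, edgeR adjusted p = 1.19e-06). The transferrin gene tfa rose by 0.78 ± 0.18. Summed CPM of these lists overlapped between groups for intestine (3396 to 7279 CPM in axenic and 2546 to 4090 CPM in conventional libraries) and pancreas (12280 to 18350 CPM in axenic and 10900 to 15120 CPM in conventional libraries), but not for liver. Red cell genes rose in 7 of 26 and fell in 1. The rises included the globin hbae1.3 by 0.92 ± 0.20, the anion exchanger slc4a1a by 0.84 ± 0.18 and the haem enzyme alas2 by 0.73 ± 0.16, all with overlapping groups. The part of these organs in the other results was not tested.

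**Figure D4:**
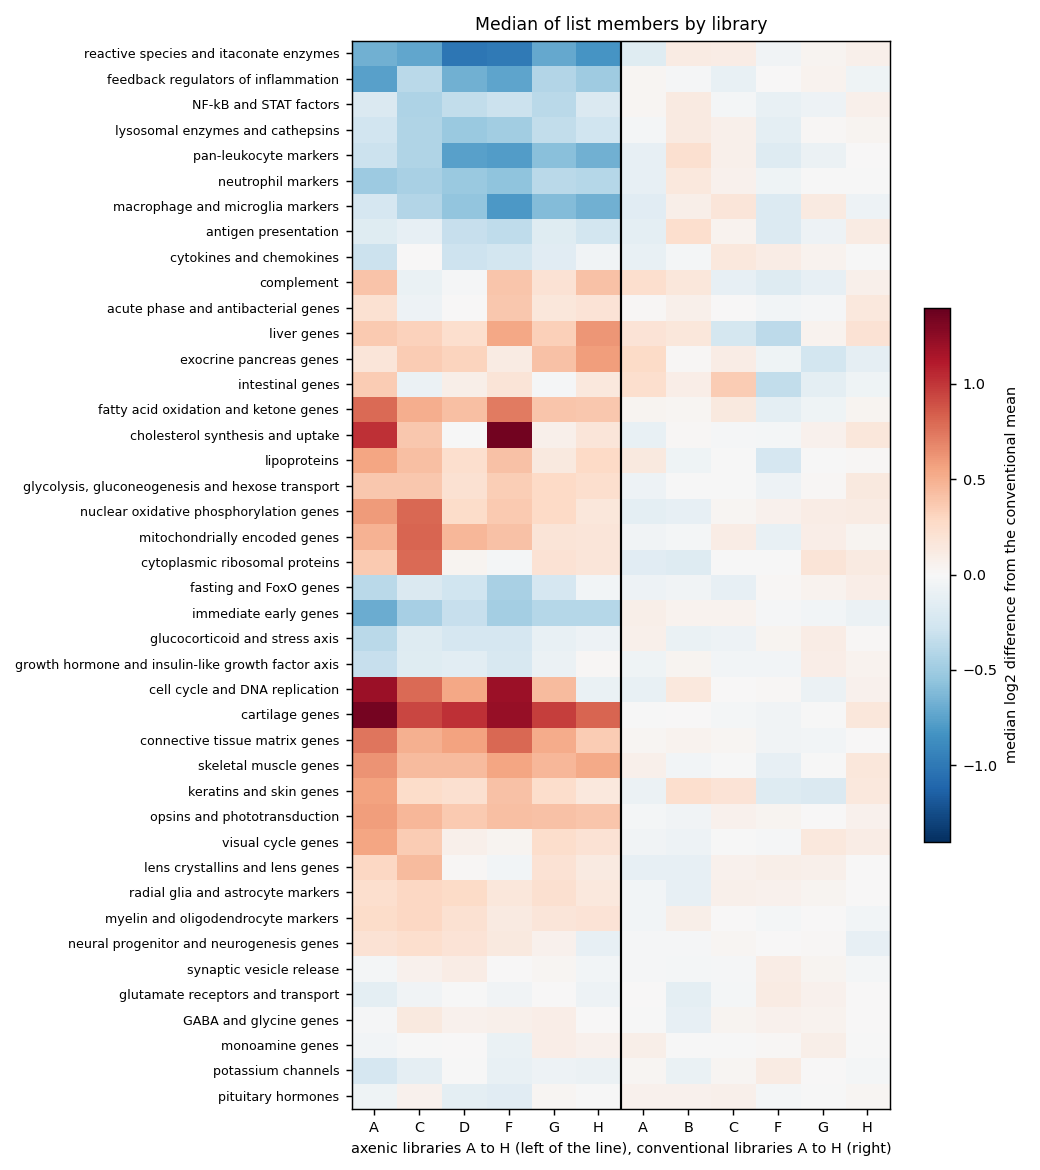
Median over the tested members of each list of log2 (CPM + 0.5) minus the conventional mean, for the 6 axenic libraries (left of the line) and the 6 conventional libraries (right of it) of experiment 1. Red is higher and blue lower; cholesterol, cell cycle and cartilage rows are darkest in axenic A and F, respiratory chain rows in axenic C, and the rows of reactive species, inflammation inhibitors and lysosomes are blue in all 6 axenic libraries.

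On the first principal component the axenic libraries were spread farther than the conventional ones. For cell cycle genes the median difference from the conventional mean was 1.2 in axenic A and 1.2 in F, but -0.09 in H. For cholesterol genes it was 1.02 in A and 1.35 in F, -0.01 in D and 0.07 in G. For oxidative phosphorylation it was 0.80 in C and 0.16 in H. Inhibitors of inflammation were less uneven, from -0.76 in A to -0.38 in C, and cartilage genes were raised in all 6, from 1.34 in A to 0.81 in H. With axenic A and F left out, 1699 genes were called, 1005 higher and 694 lower, with 24 cartilage, 54 muscle and 32 photoreceptor genes called higher. Of 1757 genes called higher, A and F were the 2 highest axenic libraries for 33.8% and H the lowest for 40.8%.

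The same contrast was measured in independent libraries of experiment 2, from polyA-selected RNA of 4 axenic and 7 conventional pools. There 927 of 19229 genes (4.82%) were called by edgeR's test. Of 2879 calls of experiment 1 that could be tested in experiment 2, 574 were called there (19.9%), all in the same direction, and 2528 had the same sign (87.8%). The same-sign share over all genes was not computed. Seen from the other side, 66.1% of the calls of experiment 2 were called in experiment 1, while 1.95% of the genes not called in experiment 1 were called in experiment 2. Among immune genes, nfkbiz gave -2.83 ± 0.45 in experiment 2 (edgeR adjusted p = 0.00174) and irg1l -4.78 ± 0.84 (edgeR adjusted p = 0.00335). srebf1 gave -1.28 ± 0.19 and mylipa -1.60 ± 0.21 (edgeR adjusted p = 0.00108 and 0.000476). The immediate early genes egr3 and npas4a gave 0.03 ± 0.23 and 0.15 ± 0.47 there and were not called. txnipb, at 1.13 ± 0.13 in experiment 1, gave -0.07 ± 0.34. rho gave 0.13 ± 0.35 and cldn1 0.02 ± 0.39, against 0.83 ± 0.10 and 0.72 ± 0.09 in experiment 1. anpepb fell in experiment 1 by 2.15 ± 0.24 and gave 0.97 ± 0.55 in experiment 2 (edgeR adjusted p = 0.346). The difference between the experiments was itself called for 7 of 20679 genes (0.0339%), and anpepb, egr3, npas4a, txnipb, rho and cldn1 were not among them. Given the spread in experiment 2, a difference that was not called does not show that the responses were equal.

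**Figure D5:**
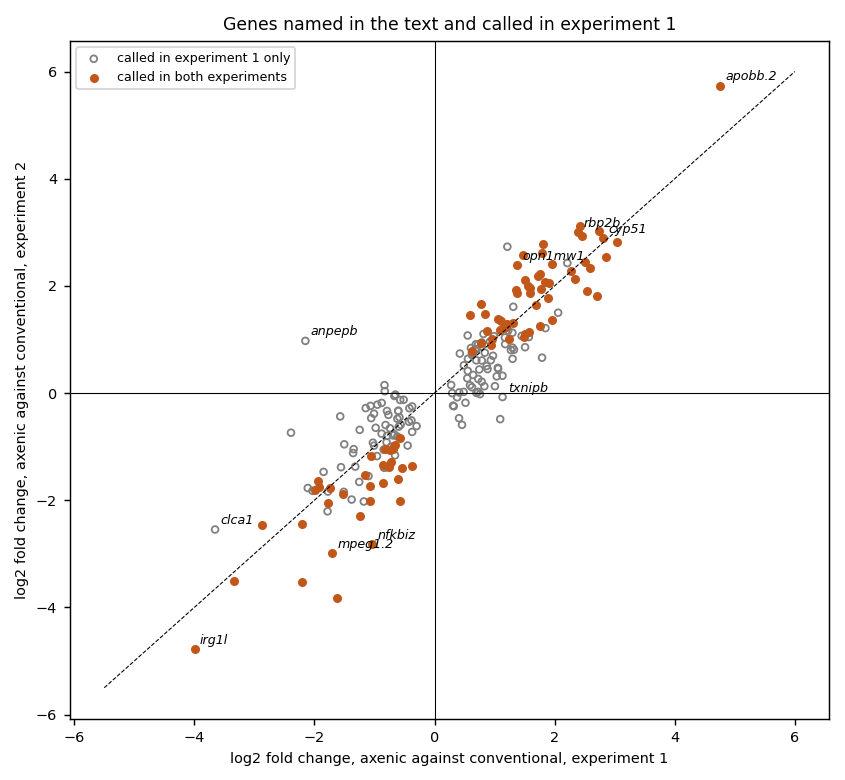
Log2 fold change of axenic against conventional heads in experiment 1 (horizontal) and in experiment 2 (vertical) for the 221 genes named in the text that were called in experiment 1 and tested in experiment 2; filled points were called in both (86), open points in experiment 1 only (135), and the dashed line marks equal values. Of these genes 208 had the same sign in both experiments and 13 the opposite sign, anpepb farthest from the line among them.

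The 7 genes whose response differed between the experiments are named here after their values were seen, and none of them was called in experiment 1. nupr1b, a stress-induced nuclear protein, lay at 12.2 to 21.4 (median 15.6) CPM in axenic and 13.6 to 22.5 (median 16.9) CPM in conventional libraries of experiment 1 (log2 -0.13 ± 0.14), and its log2 fold change in experiment 2 was -3.102 ± 0.51. vim, the filament vimentin, gave 0.06 ± 0.11 and -1.38 ± 0.26, and ctdspla, a phosphatase gene, gave -0.13 ± 0.11 and -1.29 ± 0.20. ago3b, atm, hnrnpa0a and lama2 gave -0.08 ± 0.21, 0.07 ± 0.10, 0.20 ± 0.10 and -0.06 ± 0.10 in experiment 1 and 2.31 ± 0.42, 1.14 ± 0.19, 1.299 ± 0.19 and 1.29 ± 0.25 in experiment 2. The 2 experiments differ in RNA selection and in the laboratory that extracted the RNA, and these cannot be told apart from the experiment.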

How the data were processed

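RNA was measured in pooled larval heads by sequencing. Per the labels' protocols, experiment 1 used stranded total RNA libraries after ribosomal depletion, and experiment 2 used polyA selection and another laboratory for extraction. Per the submitters' processing notes, bcl2fastq, Partek 8.0.19.0428, STAR 2.5.3a and GRCz11 were used; which annotation was counted, and whether by strand, is not given there. The values deposited by the authors are estimated counts per gene, not normalized. In experiment 1, 9.44% of values, and in experiment 2, 17.3%, lay more than 0.01 from a whole number, so values were rounded, although whole counts had been assumed when the test was chosen.

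The 12 libraries were scaled with TMM, filtered with filterByExpr and tested two-sided with edgeR 4.0.16 (glmQLFit and glmQLFTest, R 4.3.3) with Benjamini-Hochberg adjustment over all genes tested. CPM was computed from TMM-scaled library sizes, and each SE was derived from the log2 fold change and its F statistic (the ratio of the former to the root of the latter). Alternatives used DESeq2 1.42.0, limma 3.58.1 (voom with quality weights), other scalings and filters, single libraries left out, and a model with all 18 libraries. On simulated data with the real means, 34.3% of genes changed by 0.5 on the log2 scale, 85.1% of those changed by 1 and 98.5% of those changed by 2 were recovered, with 10 unchanged genes called of 18996 tested. The simulation changed far fewer genes than were called in the real data. Its counts were drawn independently for each gene from the type of model that edgeR fits. Recovery in the real data may therefore differ. All pairs of libraries of the same group differed by more than sampling noise. Gene ends are 1 base less than the deposited stop, which lies past the gene. The 70 gene lists and the rule for naming genes were written with earlier results of these data known, so list counts are descriptions. Some genes are in more than 1 list, so the counts of different lists are not independent. Named genes were the 15 largest rises and 15 largest falls, up to 5 called members per list and direction by adjusted p, and anchor genes, of which the text names a part, chosen after their values were seen. They had a mean of at least 1 CPM unless they were anchors. The largest rises and falls were taken only among called genes whose groups did not overlap. Choosing list members by adjusted p also favours separated groups, so separation of a named gene is partly a result of the choice. Counting intervals cover counting error only.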

Additional observations from a re-analysis of the deposited data

Results flagged for a closer look

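In a group of 6 libraries, a library was singled out when its gap to the nearest other library as a share of the group's range exceeded Dixon's 95% critical value. For normally distributed values, which CPM need not be, chance does this in about 1 in 20 groups. The rule was applied to both groups for every gene named in the text, so chance alone would single out many libraries. How many of those below it accounts for was not tested. The ratio is given for each gene.

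Single conventional libraries passed this rule for several genes. Library H was highest for irg1l (0.725), lipg (0.636), pdk4 (0.629), trib3 (0.668), atf3 (0.738), cat (0.721) and alas2 (0.654). Library A was highest for nfkbiaa (0.759), ccr9a (0.766) and junbb (0.726). Library B was highest for grna (0.672), ehf (0.892) and mki67 (0.699). Library F was lowest for ctsla (0.721), ttr (0.647), cyp1a (0.663) and sst2 (0.843). Library G was lowest for ifitm5 (0.656) and had the highest share of counts from mitochondrially encoded genes (0.83).

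Among axenic libraries, A was highest for cpt1b (0.712), pkmb (0.789), ifitm5 (0.779), mmp2 (0.639) and myhz2 (0.705). Library G was highest for acp5a (0.714) and mpeg1.2 (0.662), and H was highest for c3b.2 (0.737), fbxo32 (0.749) and plac8.2 (1). Library C was highest for nfkbiaa (0.729), D was highest for bdnf (0.685), and D was lowest for itgb2 (0.656) and sv2 (0.793).

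For 7 genes, named after their values were seen, the log2 fold change of experiment 1 minus that of experiment 2 was called by edgeR's test of the difference. It was 2.97 for nupr1b, 1.148 for ctdspla and 1.44 for vim. It was -2.40 for ago3b, -1.08 for atm, -1.10 for hnrnpa0a and -1.36 for lama2.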

How the results depend on the processing

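The count of 3042 called genes was 3364 with DESeq2, 2957 with limma, 3043 with DESeq2's size factors in edgeR, 2961 with no filter on low counts, 3034 above a mean of 1 CPM and 3077 with 18 libraries. Without structural RNAs in the scaling 3014 genes were called, 60.8% of them higher, against 57.8%. Against a minimum log2 fold change of 0.5, which asks a harder question, 514 genes were called, 363 higher and 151 lower (70.6% higher), of which 132 fell by more than 2-fold. DESeq2 called 337 genes lower by more than 2-fold. Leaving out 1 library at a time gave 2291 to 3361 calls, 1346 to 1993 higher and 945 to 1368 lower, with 382 to 545 higher and 177 to 250 lower by more than 2-fold. Over the same fits, list counts of 2 ranged from 0 to 3 for cartilage genes that fell and ionocyte genes that rose, from 1 to 4 for peptide hormone genes that rose and from 1 to 2 for xenobiotic genes that fell. With axenic A and F left out, an alternative chosen after seeing the data, 1699 genes were called, 1005 higher (269 by more than 2-fold) and 694 lower. The difference between experiments was called for 21 genes with 36 libraries in the model.

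Library letters occur in both groups, and it is not given whether they pair the libraries. Over all genes, the deviations of libraries with the same letter correlated by -0.050 to 0.100. Such correlations cannot exclude a pairing that acts on some genes only. With the letter as a replicate block over the 10 libraries that share letters, 2292 genes were called, 1455 higher and 837 lower, against 2610, 1672 and 938 in the same 10 libraries without the block. In these 10 libraries the block took mitochondrially encoded genes called higher from 8 to 5 and pan-leukocyte markers called lower from 6 to 4. NF-kB and STAT genes called lower stayed at 8, against 13 in all 12 libraries. Some list counts went up, such as complement genes called higher, from 7 to 9, and liver genes called higher, from 24 to 30. Of 375 called genes that the naming rule selects, 65 lost the call in at least 1 of the 7 other analyses of all 12 libraries or the 12 that left out 1 library. The genes named in the text are a part of those the rule selects and lean to the firmer calls: 8 of them were among the 65, namely acana, cpa5, fbxo32, myd88, sms, stat3, sv2 and tlr5b. Of 35 selected genes that were not called, 6 gained a call in these analyses: prss1, lyz (without axenic C), per1b (without axenic D), gh1 (without axenic G), plin2 (without axenic G or H) and cxcl8a (without axenic H). npy gained one without axenic A and F, and c3a.1 with the block. With the block, fosab, cryaa, bhlhe40 and slc6a9 were also lost, and without axenic A and F so were fosab, ptprc, tsc22d3, bhlhe40, cpe and slc6a9.

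Depth limits rare transcripts: il1b rested on 31 counts over the 6 axenic and 100 over the 6 conventional libraries.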
